A study of Mus musculus with 12 samples.

Results

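The unfolded protein response, the ATF4 branch of the integrated stress response and the heat shock response were followed through 40 genes chosen by their function. The rule used no measured value, but the genes were chosen with earlier results of these data known. They fall into an ER stress arm of 23 genes, an ATF4 arm of 9 genes and a heat shock arm of 8 genes. The array carried a probe for 39 of the 40 genes, among 20283 gene symbols in all. *Hspa1b* had none and has no value here. Where a gene had several probes, the one with the highest mean signal stood for it.

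RNA came from livers of male *db/db* mice, obese diabetic animals that lack a working leptin receptor, labelled as 8 weeks old. MgH2, which releases molecular hydrogen on contact with water, was given by gavage once daily at a labelled 0.9 mg/kg for 1, 3 or 7 days. Its controls received magnesium hydroxide, as the methods state. A separate group drank water holding hydrogen at 0.8 mM for 14 days, with degassed water as its control. Each group has 3 two-colour arrays, 12 in all, and per the methods each group's RNA came from 9 mice pooled by 3. The control pool was labelled with Cy3 and the treated pool with Cy5 on every array. No dye swap was made, so any dye bias of a probe stays in each ratio of treated to control, whereas it cancels in a difference between 2 time points. The *db/db* genotype is shared by treated and control mice, and no wild-type liver is among these arrays. P values measure the spread between pools, and 3 arrays per group limit the precision.

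The unfolded protein response is set off when unfolded proteins gather in the endoplasmic reticulum (ER), the compartment where a hepatocyte folds the plasma proteins and lipoproteins that it secretes. IRE1, PERK and ATF6 sense this in the ER membrane, and XBP1, ATF4 and cleaved ATF6 carry the signal to the nucleus, where genes for chaperones, disulfide isomerases, degradation factors and amino acid supply are transcribed. ATF4 also answers amino acid shortage and other signals that phosphorylate eIF2α, and much of its regulation lies in translation rather than in mRNA. The heat shock response is a separate system, in which HSF1 drives genes for cytosolic and mitochondrial chaperones.

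Promoter sequence from RefSeq (GRCm38.p6) is shown first, as background on regulatory elements known from genes of these pathways. The 250 bases before each annotated start were searched on both strands, in 36 of the 40 genes and in 27025 genes overall. The ER stress element, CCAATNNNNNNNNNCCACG, which ATF6 binds together with NF-Y, was found in 9 of 20 ER stress arm genes (45.0%) and in 35 of the 27025 genes (0.13%). The element was first described in promoters of this kind, so the contrast is background rather than a result. The shorter motif TGACGTGG was in none of the 20 and in 0.603% of all genes. The ATF4 and C/EBP composite element, TGATGNAA, was in 3 of 9 ATF4 arm genes (33.3%: *Atf3*, *Asns* and *Chac1*) against 3.91% of all genes, and also in *Herpud1*. The heat shock element, searched as 3 alternating units (GAANNTTCNNGAA or TTCNNGAANNTTC), was in *Hspd1* alone among 7 heat shock arm genes (14.3%) against 0.514% of all genes. A match describes letters only and is no evidence of binding.

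The stretches below hold the matches, in capitals, of *Hspa5*, the gene of the central ER chaperone BiP, of the 5 carriers of the ER stress element that were called lower at 7 days, and of *Asns* and *Hspd1*, each read 5′ to 3′ along its gene's strand. In *Calr* and *Creld2* the element lies in the opposite orientation.
Hspa5 (chr2:34772010-34772058, plus strand, 80 to 32 bases before the start): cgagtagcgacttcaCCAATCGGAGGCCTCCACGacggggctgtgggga
Calr (chr8:84847060-84847108, minus strand, 177 to 129 bases before the start): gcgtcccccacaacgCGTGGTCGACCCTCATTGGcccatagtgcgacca
Pdia6 (chr12:17266476-17266524, plus strand, 113 to 65 bases before the start): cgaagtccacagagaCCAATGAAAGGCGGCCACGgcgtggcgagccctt
Dnajc3 (chr14:118937812-118937860, plus strand, 120 to 72 bases before the start): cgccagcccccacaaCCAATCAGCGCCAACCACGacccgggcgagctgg
Creld2 (chr15:88819505-88819553, plus strand, 141 to 93 bases before the start): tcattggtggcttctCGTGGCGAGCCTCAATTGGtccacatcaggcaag
Syvn1 (chr19:6046517-6046565, plus strand, 59 to 11 bases before the start): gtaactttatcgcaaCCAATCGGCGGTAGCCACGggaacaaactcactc
Asns (chr6:7693210-7693247, minus strand, 38 to 1 bases before the start): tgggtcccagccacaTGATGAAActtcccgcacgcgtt
Hspd1 (chr1:55088044-55088091, minus strand, 159 to 112 bases before the start): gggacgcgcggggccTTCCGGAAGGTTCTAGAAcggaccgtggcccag

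Before the results, some arrays and channels need mention. Probes were tested where both channels stood above background on all arrays compared (18397 to 20411 probes), and the median log2 change of all tested probes lay between −0.0060 and 0.0083 in every comparison. MgH2 arrays with the same replicate number had Cy3 (control) signals that differed by a median of only 0.0537 to 0.0724 (log2), against 0.091 to 0.126 between control pools within a group. The labels do not say whether the control pools at 1, 3 and 7 days were the same RNA. Those comparisons may thus share control material and may not be independent of each other. Arrays lay on 4 slides that follow the groups in part: the 1-day arrays with replicate 1 at 3 days, the other 3-day arrays with replicates 1 and 2 at 7 days, replicate 3 at 7 days alone, and the 14-day arrays together. Replicate 1 at 1 day and replicate 1 at 14 days stood apart from the other arrays of their groups in the ER stress arm. The former had 13 of 21 ER genes below 0 against 2 and 1 on the other 2 arrays, and the latter 18 of 21 against 7 and 13.

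**Figure D1:**
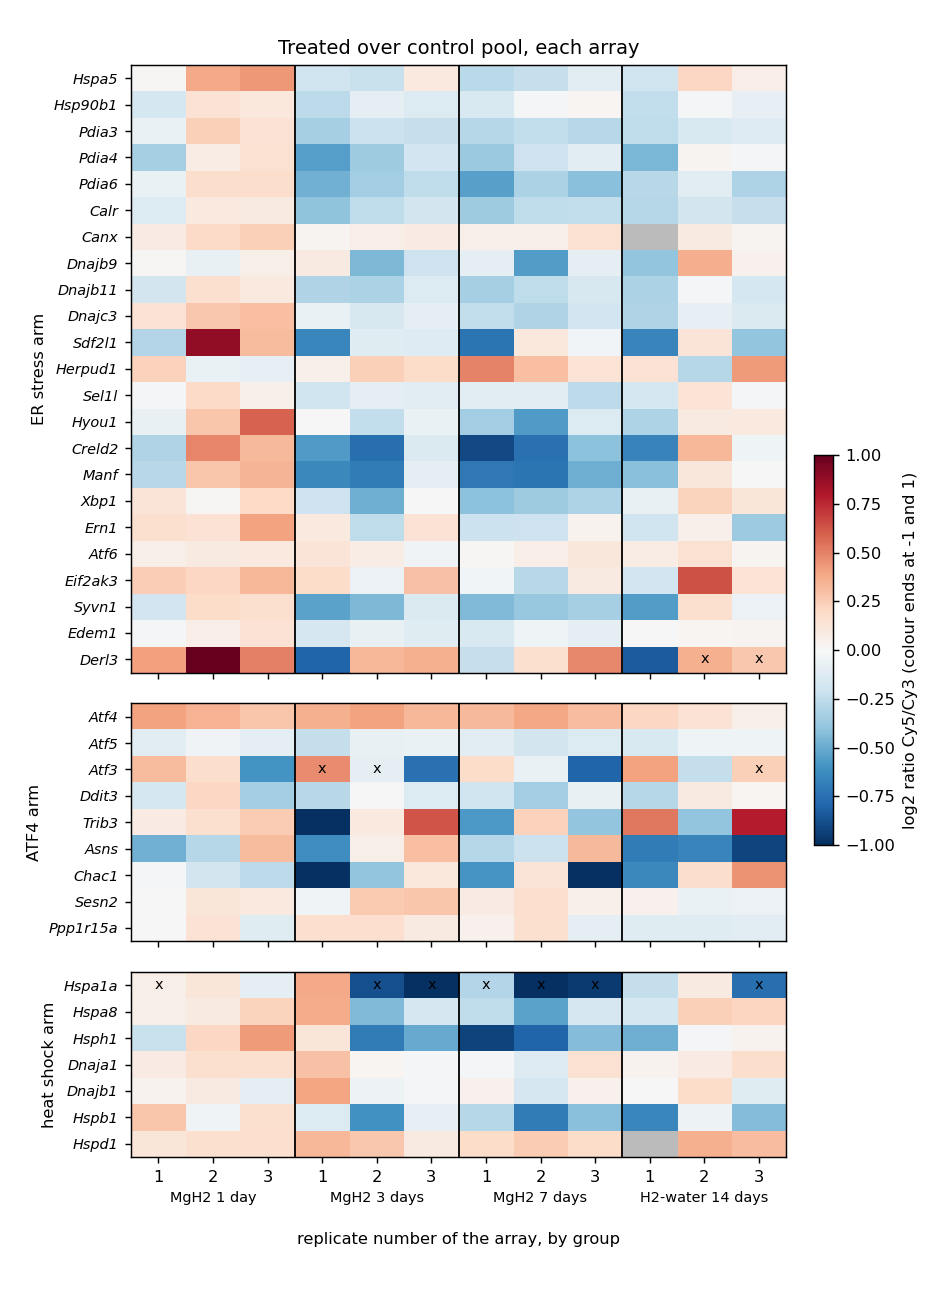
Log2 ratio of treated over control pool for the 39 measured genes (rows, by arm) on each of the 12 arrays (columns, by group and replicate number), with blue below 0 and red above 0. A cross marks a spot not above background in both channels and grey a spot left out. Blue fills most of the ER stress rows at 3 and 7 days, and *Atf4* is red on all 12 arrays.

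In the ER stress arm, *Calr*, the isomerases *Pdia3* and *Pdia6* and some further genes were lower in MgH2-treated liver after 3 and 7 days, while the chaperone genes *Hspa5*, *Hsp90b1* and *Hyou1* were not called. In whole liver, fewer cells of a type and less RNA per cell cannot be told apart. At 1 day *Canx* and *Dnajc3* were higher and no ER gene was lower. At 3 days 7 of 23 genes were lower and none higher, and at 7 days 9 of 23 were lower and none higher. Both counts include *Dnajb11*, whose 2 probes went opposite ways, and without it they were 6 and 8 of 22. The changes were small, from 0.919-fold of control for *Edem1* at 3 days to 0.622-fold for *Creld2* at 7 days. After 14 days of H2-water *Calr* alone of 21 tested was lower. In the following, a gene is called higher or lower at a Benjamini-Hochberg adjusted P under 0.05 over all tested probes in one limma fit of the 12 arrays.

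Across the 3 arms together, 3 of 38 tested genes (7.89%) were higher at 1 day, where 5.15% of all tested probes were, and none was lower against 4.24% of probes. At 3 days 2 of 37 genes were higher against 12.3% of probes, and 7 (18.9%) were lower against 11.1%. At 7 days 2 of 38 genes were higher against 15.3% of probes, and 12 (31.6%) were lower against 14.3%. Without *Dnajb11* the lower genes numbered 6 of 36 at 3 days and 11 of 37 at 7 days. At 14 days of H2-water none of 34 genes was higher against 4.92% of probes, and 2 (5.88%) were lower against 3.91%. The share of lower genes thus stood above the background at 3 and 7 days, while the share of higher genes stood below it. The split of all probes moved with the scaling. With each array centred on its median over all spots used, dim ones included, 969 probes were higher and 5171 lower at 7 days. The main fit had 2973 and 2775. Under centring 1 of the 38 genes was higher and 17 lower, where 26.6% of probes were lower. That scaling gave 330 higher and 493 lower probes at 1 day and 1236 and 104 after H2-water, and 122 and 957 from 1 to 7 days, whereas division by the channel totals gave 717 and 1580 at 1 day, 1759 and 2821 at 3 days, 2382 and 3351 at 7 days, and 789 and 1175 after H2-water. Normexp with loess gave 1702 and 892 after H2-water.

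The median log2 ratio over the 21 ER stress arm genes above background on all arrays moved with the groups. It was −0.07, 0.17 and 0.16 on replicates 1, 2 and 3 at 1 day, −0.20, −0.25 and −0.12 at 3 days, and −0.28, −0.25 and −0.14 at 7 days. On the H2-water arrays it was −0.28, 0.09 and −0.01. All 6 arrays at 3 and 7 days lay below all 3 arrays at 1 day, whereas the 14-day arrays spanned both ranges. Median ratios of the 18397 probes above background on all 12 arrays stayed between −0.005 and 0.01. Over all spots used, dim ones included, the medians ran from −0.1117 (replicate 2 at 3 days) to 0.1231 (replicate 1 at 7 days). Centring removes these wider medians.

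**Figure D2:**
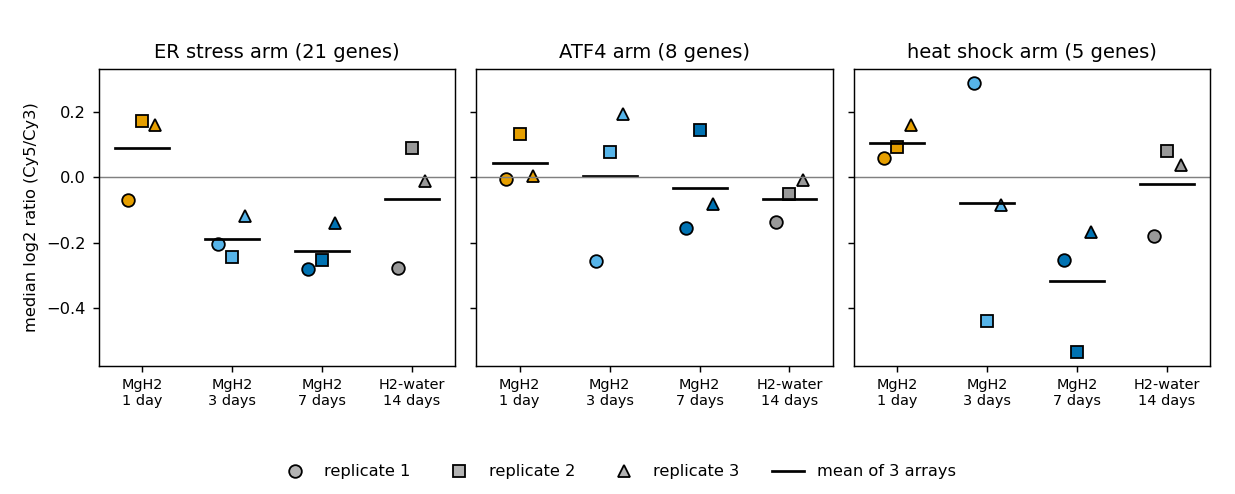
Median log2 ratio of treated over control in each arm (ER stress 21 genes, ATF4 8 genes, heat shock 5 genes), 1 point per array and a bar for the group mean. ER stress medians run from −0.28 to −0.12 at 3 and 7 days and from −0.07 to 0.17 at 1 day, while ATF4 medians straddle 0 in the 3- and 7-day groups.

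The lectin chaperones calreticulin and calnexin hold newly made glycoproteins until they are folded, calreticulin in the ER lumen and calnexin in its membrane. Log2 ratios of *Calr* on replicates 1, 2 and 3 were −0.14, 0.10 and 0.09 at 1 day, −0.40, −0.25 and −0.19 at 3 days, −0.36, −0.25 and −0.25 at 7 days, and −0.28, −0.19 and −0.23 after H2-water. All ratios were below 0 apart from replicates 2 and 3 at 1 day, and the 3- and 7-day values did not overlap the 1-day values. *Calr* was lower at 3 days (−0.28 ± 0.056, SE, adjusted P = 0.00682), at 7 days (−0.29 ± 0.056, SE, adjusted P = 0.00432) and after H2-water (−0.23 ± 0.056, SE, adjusted P = 0.0311), the last no longer called when any 1 of the 3 arrays was left out. *Canx* ratios lay on the other side of 0. For *Canx* the 3 arrays of each group gave 0.09, 0.19 and 0.23 at 1 day, 0.03, 0.07 and 0.08 at 3 days, 0.06, 0.06 and 0.15 at 7 days, and 0.09 and 0.03 on replicates 2 and 3 after H2-water (log2 ratios of replicates 1, 2 and 3). It was above 0 on all 11 arrays with a value and was higher at 1 day (0.17 ± 0.039, SE, adjusted P = 0.0294), with no call at 3 or 7 days. The 1-day call was lost without replicate 2 or 3. Its spot on replicate 1 at 14 days was left out, so it was not tested there.

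Protein disulfide isomerases form and rearrange the disulfide bonds of secreted proteins. *Pdia3*, the isomerase that works with the lectin chaperones, was below 0 on every array at 3 and 7 days. *Pdia3* had log2 ratios on replicates 1, 2 and 3 of −0.07, 0.24 and 0.15 at 1 day, −0.33, −0.22 and −0.23 at 3 days, −0.28, −0.25 and −0.28 at 7 days, and −0.25, −0.15 and −0.13 after H2-water. The difference from control was called at 3 days (−0.26 ± 0.054, SE, adjusted P = 0.00797) and 7 days (−0.27 ± 0.054, SE, adjusted P = 0.00503). The *Pdia6* ratios (log2, replicates 1, 2 and 3) were −0.07, 0.17 and 0.18 at 1 day, −0.48, −0.35 and −0.26 at 3 days, −0.55, −0.32 and −0.41 at 7 days, and −0.28, −0.11 and −0.31 after H2-water. *Pdia6*, whose product binds BiP, was lower at 7 days (−0.43 ± 0.067, SE, adjusted P = 0.00148) and at 3 days (−0.36 ± 0.067, SE, adjusted P = 0.00502). Its second probe was lower at 7 days as well (−0.21, adjusted P = 0.0321), was higher at 1 day (0.26, adjusted P = 0.0337) and was not called at 3 days. Log2 ratios of *Pdia4* on replicates 1, 2 and 3 were −0.33, 0.07 and 0.16 at 1 day, −0.55, −0.35 and −0.19 at 3 days, −0.37, −0.21 and −0.11 at 7 days, and −0.46, 0.02 and −0.01 after H2-water. *Pdia4* was lower at 3 days (−0.36 ± 0.12, SE, adjusted P = 0.0454) with all 3 arrays below 0, a call lost when any 1 of them was left out, and at 7 days its log2 change was −0.23 with no call. *Pdia3*, *Pdia6* and *Calr* were lower at both times also with any 1 array of the group left out.

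The DnaJ co-chaperones of the ER hand unfolded proteins to BiP. For *Dnajc3* the 3 arrays of each group gave 0.14, 0.27 and 0.30 at 1 day, −0.06, −0.16 and −0.09 at 3 days, −0.25, −0.30 and −0.19 at 7 days, and −0.30, −0.08 and −0.15 after H2-water (log2 ratios of replicates 1, 2 and 3). *Dnajc3*, which also inhibits the eIF2α kinases, was above 0 on all 3 arrays at 1 day and below 0 on all others. It was higher at 1 day (0.24 ± 0.049, SE, adjusted P = 0.0169) and lower at 7 days (−0.25 ± 0.049, SE, adjusted P = 0.00468). The 1-day call was lost without replicate 2 or 3, and the 7-day call held with any 1 array left out. *Dnajb11* had log2 ratios on replicates 1, 2 and 3 of −0.18, 0.16 and 0.10 at 1 day, −0.30, −0.32 and −0.13 at 3 days, −0.33, −0.25 and −0.16 at 7 days, and −0.31, −0.01 and −0.18 after H2-water. *Dnajb11* was lower at 3 days (−0.25 ± 0.075, SE, adjusted P = 0.0373) and 7 days (−0.25 ± 0.075, SE, adjusted P = 0.0325), both calls lost when any 1 array of the group was left out. A second, dim probe of *Dnajb11* went the opposite way, higher at 3 days (0.69, adjusted P = 0.0457) and at 7 days (0.99, adjusted P = 0.00811), so the direction of this gene is uncertain.

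*Manf* and *Creld2* encode ER stress proteins that can be secreted, and showed the largest ER changes at 7 days. The *Manf* ratios (log2, replicates 1, 2 and 3) were −0.28, 0.27 and 0.34 at 1 day, −0.64, −0.70 and −0.10 at 3 days, −0.71, −0.73 and −0.49 at 7 days, and −0.42, 0.11 and −0.01 after H2-water. On replicates 1 and 2 at 3 days and all arrays at 7 days the ratio lay at −0.49 or below, whereas replicate 3 at 3 days lay within the 1-day range. *Manf* was lower at 3 days (−0.48 ± 0.15, SE, adjusted P = 0.041) and 7 days (−0.64 ± 0.15, SE, adjusted P = 0.00984), and both calls held in only 1 of the 3 fits that left out an array, the one without replicate 3. Log2 ratios of *Creld2* on replicates 1, 2 and 3 were −0.30, 0.49 and 0.33 at 1 day, −0.57, −0.75 and −0.14 at 3 days, −0.90, −0.75 and −0.41 at 7 days, and −0.67, 0.33 and −0.04 after H2-water. *Creld2* had the same split within the 3-day group, where it missed the threshold (−0.49, adjusted P = 0.105), and was lower at 7 days (−0.69 ± 0.20, SE, adjusted P = 0.0274). That call was lost when any 1 of the 3 arrays was left out.

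*Xbp1* encodes the transcription factor that IRE1 activates by splicing, and the array does not tell spliced from unspliced mRNA. For *Xbp1* the 3 arrays of each group gave 0.13, 0.01 and 0.20 at 1 day, −0.20, −0.49 and −0.0018 at 3 days, −0.41, −0.35 and −0.31 at 7 days, and −0.08, 0.22 and 0.12 after H2-water (log2 ratios of replicates 1, 2 and 3). It was below 0 on all 3 arrays at 7 days, where it was lower (−0.36 ± 0.083, SE, adjusted P = 0.01) though not without replicate 1, and at or above 0.01 on the 1-day arrays. *Syvn1* encodes the ubiquitin ligase Hrd1, and *Edem1* a protein that directs misfolded glycoproteins to degradation. *Syvn1* had log2 ratios on replicates 1, 2 and 3 of −0.19, 0.18 and 0.16 at 1 day, −0.53, −0.45 and −0.15 at 3 days, −0.44, −0.38 and −0.33 at 7 days, and −0.56, 0.16 and −0.06 after H2-water. *Syvn1* was lower at 7 days (−0.38 ± 0.12, SE, adjusted P = 0.0415), a call lost when any 1 array was left out. At 3 days its log2 change was −0.38 and the call depended on the fit (adjusted P = 0.0525, or 0.049 with the replicate number as a block). The *Edem1* ratios (log2, replicates 1, 2 and 3) were −0.02, 0.07 and 0.14 at 1 day, −0.17, −0.07 and −0.12 at 3 days, −0.15, −0.05 and −0.10 at 7 days, and 0.01, 0.02 and 0.03 after H2-water. The change of *Edem1* was small, with a call at 3 days only (−0.12 ± 0.038, SE, adjusted P = 0.0433) that was lost when any 1 array was left out.

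The chaperone BiP itself, *Hspa5*, was not called at any time. Log2 ratios of *Hspa5* on replicates 1, 2 and 3 were 0.01, 0.38 and 0.43 at 1 day, −0.20, −0.23 and 0.10 at 3 days, −0.27, −0.23 and −0.11 at 7 days, and −0.20, 0.20 and 0.07 after H2-water. Its 2 highest values were on replicates 2 and 3 at 1 day, and all 7-day arrays were below 0 (−0.20 ± 0.098, SE, adjusted P = 0.151). *Hsp90b1*, the ER form of HSP90, had a log2 change of −0.16 at 3 days and −0.05 at 7 days, and *Hyou1*, the large ER HSP70, −0.10 and −0.35, all without a call. The sensors *Ern1*, *Atf6* and *Eif2ak3* had log2 changes between −0.13 and 0.07 at 7 days, none of them called. *Herpud1*, a membrane protein of the degradation machinery, was above 0 at 7 days (0.31, adjusted P = 0.0753) without a call. The co-chaperone *Dnajb9*, *Sdf2l1*, the degradation scaffold *Sel1l* and *Derl3*, a channel protein of the same machinery, had log2 changes of −0.25, −0.22, −0.16 and 0.14 at 7 days and no call. *Sdf2l1* varied widely between pools, with an SD of 0.59 (log2, n = 3) at 1 day.

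Of the 9 genes with an ER stress element in their promoter window, 5 were lower at 7 days, and of the 11 without it 3 were lower (*Pdia3*, *Dnajb11* and *Xbp1*). Their medians were −0.25 and −0.22 (log2). At 3 days the counts were 2 of 9 and 4 of 11. Without *Dnajb11*, which has no element, 2 of 10 were lower at 7 days and 3 of 10 at 3 days. No test was made of this split.

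**Figure D3:**
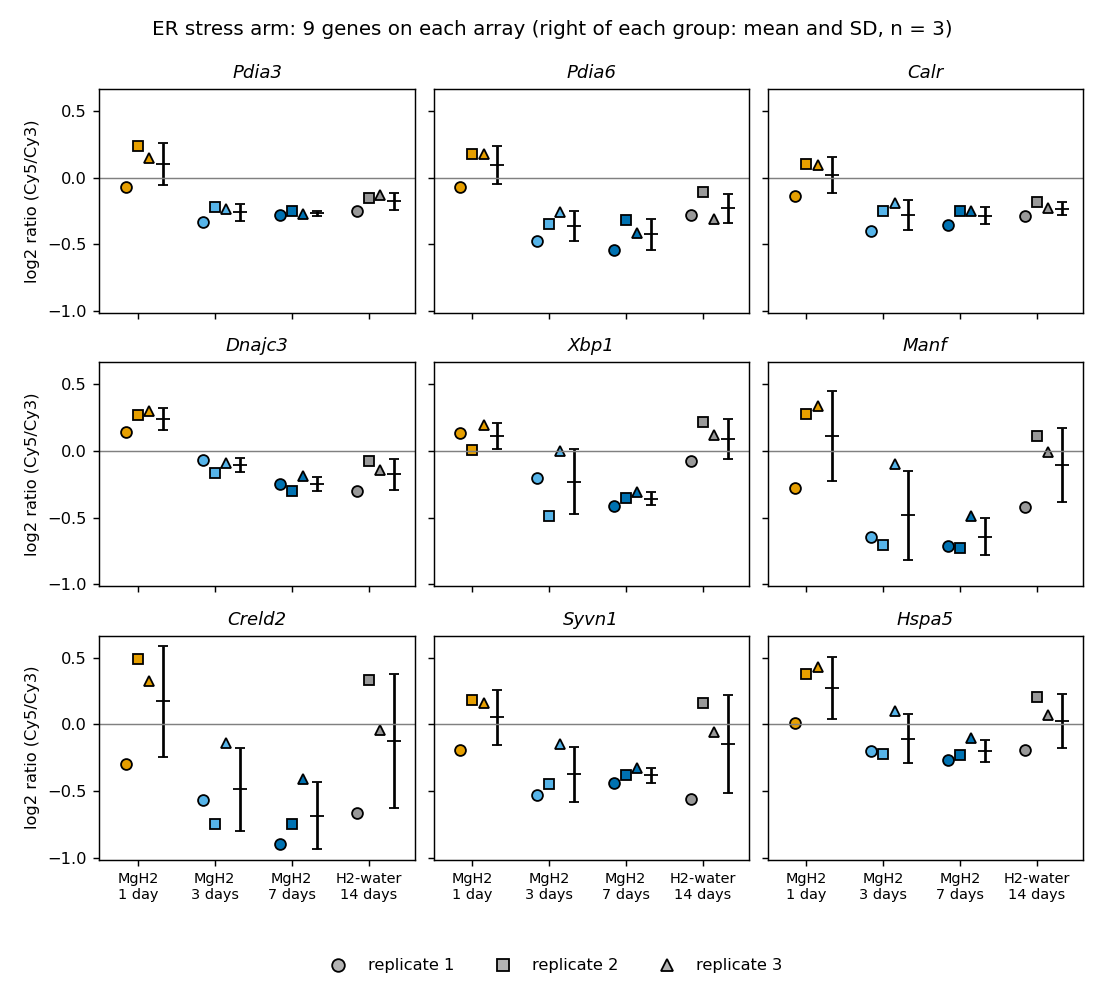
Log2 ratios of 9 ER stress arm genes, 1 point per array with its shape for the replicate number, and beside each group its mean and SD (n = 3). At 7 days all points of these genes lie below 0, and at 1 day replicate 1 is mostly the lowest point.

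Whether the ratio itself changed with the length of treatment was tested between the MgH2 groups. From 1 to 7 days 5 of 38 genes fell (13.2%) against 3.7% of probes, and none rose against 3.28%. All 5 belong to the ER stress arm. These were *Pdia3* (−0.37 ± 0.076, SE, adjusted P = 0.0218), *Pdia6* (−0.52 ± 0.094, SE, adjusted P = 0.0164), *Calr* (−0.31 ± 0.079, SE, adjusted P = 0.0456), *Dnajc3* (−0.48 ± 0.069, SE, adjusted P = 0.00936) and *Xbp1* (−0.47 ± 0.12, SE, adjusted P = 0.0406). The second *Pdia6* probe changed likewise (−0.47, adjusted P = 0.0191). In the ER arm 22 of 23 genes had a negative difference, with a median of −0.37 where that of all probes was 0.01. Without replicate 1 at 1 day, the array that stood apart, *Calr*, *Dnajc3*, *Pdia3*, *Pdia6*, *Hspa5*, *Hyou1* and *Manf* fell and *Xbp1* was not called. *Dnajc3* was called in all 6 fits that left out an array of the 2 groups, *Pdia6* in 3, *Pdia3* in 2, *Calr* in 1 and *Xbp1* in none. With the replicate number as a block, 10 genes fell, where 8.49% of probes did. *Hspa5* (−0.47, adjusted P = 0.0285), *Hyou1* (−0.62, adjusted P = 0.0359), *Manf* (−0.76, adjusted P = 0.0224), *Edem1* (−0.16, adjusted P = 0.0304) and *Hspb1* (−0.60, adjusted P = 0.026) joined the 5.

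From 1 to 3 days none of 37 genes was called, where 0.0156% of probes rose and 0.00521% fell. At an unadjusted P under 0.05 by limma 13 of the 37 passed, a larger share than the 15.4% of probes. Of the 23 ER stress arm genes 12 passed. With the replicate block, under which 1.47% of probes fell, *Calr* (adjusted P = 0.0292), *Dnajc3* (adjusted P = 0.0479), *Pdia3* (adjusted P = 0.0324) and *Pdia6* (adjusted P = 0.0248) fell. From 3 to 7 days none was called and the share of called probes was 0% higher and 0% lower. No gene and 904 probes had an unadjusted P under 0.05. The median difference of the ER arm was −0.33 from 1 to 3 days and −0.01 from 3 to 7 days.

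The treated and the control channel were also compared between time points one at a time. In Cy5 alone, after quantile normalization over the 24 channels, 14 of 38 genes were lower at 7 days than at 1 day, where 9.24% of probes were lower, among them *Creld2* (−0.86), *Hsph1* (−0.78) and *Manf* (−0.73). *Calr* was not called in Cy5 alone (−0.21, adjusted P = 0.088). In Cy3 alone no gene was called, and only 1 of 19153 probes was. There *Pdia6*, *Calr*, *Dnajc3* and *Xbp1* lay within 0.07 of 0. This comparison was chosen after seeing the data.

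**Figure D4:**
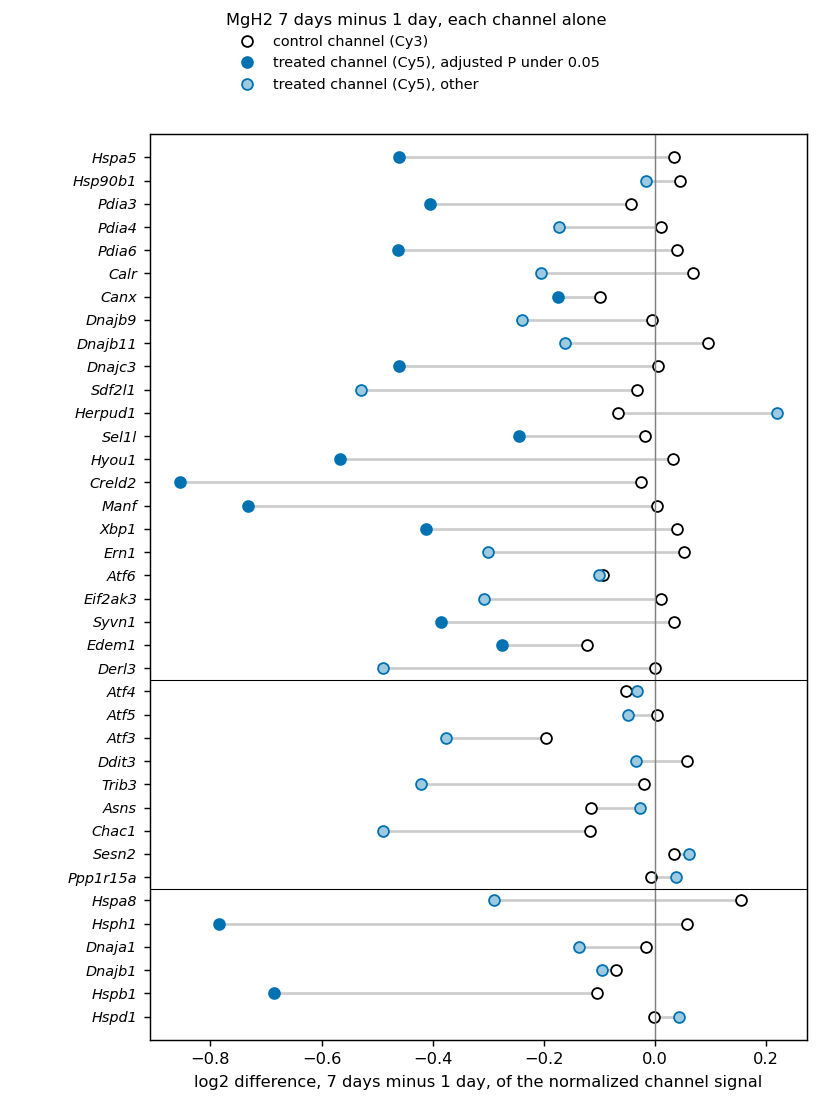
Log2 difference between 7 days and 1 day of MgH2 for each gene in the treated channel (Cy5) and in the control channel (Cy3). In the ER stress arm (top block) all points but that of *Herpud1* lie below 0 in Cy5, while Cy3 points lie between −0.12 and 0.10.

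Slide and time overlap in part, and within a slide the difference could be read at 2 places. On the first slide the single 3-day array lay below the mean of the 1-day arrays in 18 of 21 ER genes, with a median of −0.32. On the second slide the 7-day arrays lay below the 3-day arrays in 17 of 21, with a median of −0.11. Neither contrast matches replicate numbers. The first sets replicate 1 at 3 days against the mean of replicates 1, 2 and 3 at 1 day. The second sets replicates 1 and 2 at 7 days against replicates 2 and 3 at 3 days. On replicate 1 alone the arm median was −0.07 at 1 day and −0.20 at 3 days. Over all arrays the median difference from 3 to 7 days was −0.01. No slide held both 1- and 7-day arrays. With the slide as a fixed block no gene was called from 1 to 3 or from 1 to 7 days. Nor was any of all probes (0 of 19210 and 0 of 19153), so these counts do not single out the genes. At an unadjusted P under 0.05 by limma, 10 of 37 and 11 of 38 genes passed, beside 1897 and 1762 probes.

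In the ATF4 arm *Atf4* mRNA was higher in all MgH2 groups, while its known target genes had no common direction. The median log2 ratio over 8 genes of the arm was −0.26, 0.08 and 0.19 on the arrays at 3 days and −0.15, 0.14 and −0.08 at 7 days, so the arm as a whole lay on both sides of 0. For *Atf4* the 3 arrays of each group gave 0.40, 0.34 and 0.28 at 1 day, 0.36, 0.41 and 0.34 at 3 days, 0.33, 0.39 and 0.31 at 7 days, and 0.21, 0.15 and 0.06 after H2-water (log2 ratios of replicates 1, 2 and 3). All 12 values were above 0, and the 9 MgH2 values (0.28 to 0.41) did not overlap the H2-water values. *Atf4* was higher at 1 day (0.34 ± 0.039, SE, adjusted P = 0.000644), 3 days (0.37 ± 0.039, SE, adjusted P = 0.00028) and 7 days (0.34 ± 0.039, SE, adjusted P = 0.000296), or 1.27-fold, 1.29-fold and 1.27-fold. After H2-water the log2 change was 0.14 (adjusted P = 0.0547). A second probe was higher at 1 day (0.16, adjusted P = 0.0346) and 7 days (0.15, adjusted P = 0.0139) and was not called at 3 days (0.10). No contrast between MgH2 times called *Atf4*. Without a dye swap, a steady dye bias of a probe cannot be told apart from a steady rise. *Canx*, *Hspd1* and *Atf5*, each with a single sign on every array with a value, carry the same limit. *Atf4* was the one gene of 34 that differed between H2-water and the mean of the MgH2 groups (−0.21 ± 0.044, SE, adjusted P = 0.0375), where 1.51% of probes were higher and 1.74% lower. The second *Atf4* probe was not called there (−0.16, adjusted P = 0.0752). With the replicate block the first was not called either (adjusted P = 0.0689), and its call was lost in 9 of the 12 fits that left out an array, each H2-water array among them. The 2 regimens also differ in route, length, control and slide, which cannot be told apart from the agent.

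*Atf5*, a related factor translated under the same signal, changed little. *Atf5* had log2 ratios on replicates 1, 2 and 3 of −0.11, −0.04 and −0.10 at 1 day, −0.24, −0.07 and −0.06 at 3 days, −0.11, −0.18 and −0.14 at 7 days, and −0.15, −0.04 and −0.04 after H2-water. All 12 values were below 0, and it was lower at 7 days only (−0.14 ± 0.042, SE, adjusted P = 0.0291), a call lost when any 1 array was left out. *Asns*, asparagine synthetase and a standard ATF4 target, varied between pools. The *Asns* ratios (log2, replicates 1, 2 and 3) were −0.48, −0.28 and 0.31 at 1 day, −0.62, 0.06 and 0.30 at 3 days, −0.28, −0.21 and 0.32 at 7 days, and −0.70, −0.66 and −0.92 after H2-water. The H2-water arrays were all low, where *Asns* was lower (−0.76 ± 0.19, SE, adjusted P = 0.0377, 0.591-fold), while the MgH2 groups straddled 0. This call was lost when any 1 of the H2-water arrays was left out. *Trib3* and *Chac1*, further ATF4 targets, spanned −1.40 to 0.63 and −1.18 to 0.11 at 3 days and had no call. *Ddit3*, the gene of CHOP, and *Ppp1r15a*, the gene of the phosphatase subunit GADD34, had log2 changes of −0.21 and 0.04 at 7 days and no call at any time. *Atf3* was tested at 1 and 7 days only, since it was dim at 3 and 14 days, and *Sesn2* had no call.

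In the heat shock arm the cytosolic genes *Hsph1* and *Hspb1* were lower at 7 days and the mitochondrial *Hspd1* was higher. The median over 5 genes was 0.29, −0.44 and −0.08 on replicates 1, 2 and 3 at 3 days and −0.25, −0.54 and −0.17 at 7 days. *Hsph1* encodes the HSP110 nucleotide exchange factor of HSP70. Log2 ratios of *Hsph1* on replicates 1, 2 and 3 were −0.22, 0.21 and 0.42 at 1 day, 0.12, −0.70 and −0.50 at 3 days, −0.92, −0.80 and −0.43 at 7 days, and −0.49, −0.01 and 0.04 after H2-water. Replicate 1 at 3 days stood with the 1-day arrays, and the other 2 with the 7-day arrays. *Hsph1* was lower at 7 days (−0.72 ± 0.17, SE, adjusted P = 0.012), though not without replicate 1 or 2. For *Hspb1* the 3 arrays of each group gave 0.28, −0.03 and 0.16 at 1 day, −0.14, −0.61 and −0.08 at 3 days, −0.28, −0.70 and −0.42 at 7 days, and −0.65, −0.05 and −0.43 after H2-water (log2 ratios of replicates 1, 2 and 3). *Hspb1*, the small heat shock protein HSP25, was lower at 7 days (−0.47 ± 0.13, SE, adjusted P = 0.0231), though not without replicate 2 or 3, with low values also on 2 of the H2-water arrays. *Hspd1* encodes mitochondrial HSP60. *Hspd1* had log2 ratios on replicates 1, 2 and 3 of 0.12, 0.16 and 0.16 at 1 day, 0.33, 0.27 and 0.09 at 3 days, 0.18, 0.26 and 0.18 at 7 days, and 0.35 and 0.31 on replicates 2 and 3 after H2-water. It was above 0 on all 11 arrays with a value and was higher at 3 days (0.23 ± 0.046, SE, adjusted P = 0.00843) and 7 days (0.21 ± 0.046, SE, adjusted P = 0.00994), with both calls lost without replicate 2.

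*Hspa8*, the constitutive cytosolic HSP70, was below 0 on all arrays at 7 days without a call for its brightest probe (−0.32, adjusted P = 0.106), whereas its other 2 probes were lower (−0.45, adjusted P = 0.0421, and −0.39, adjusted P = 0.0474). The inducible *Hspa1a* was not above background in the treated channel on any array at 7 days and was above it in the control channel on all 3. On the mean of those 3 arrays it was at least 1.56-fold lower, taking the lowest signal above background as a floor, and this bound has no test. The bound does not hold for each array. Measured log2 ratios were −0.29, −2.23 and −0.955 on replicates 1, 2 and 3, with dim treated signals. *Dnaja1* and *Dnajb1*, DnaJ partners of HSP70, had log2 changes of 0.0048 and −0.03 at 7 days. The second probe of *Dnaja1* was below 0 on all 3 arrays there (−0.36, adjusted P = 0.0503) and narrowly missed a call.

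Among the MgH2 arrays, *Hsph1* and *Hspa8* were lowest where the cold-inducible gene *Cirbp* was high, an association that was not tested. *Cirbp* and *Rbm3* encode RNA-binding proteins whose mRNAs rise on cooling. The *Cirbp* ratios (log2, replicates 1, 2 and 3) were −0.04, 0.05 and −0.07 at 1 day, −0.07, 0.81 and 0.89 at 3 days, 1.08, 0.98 and 0.83 at 7 days, and 0.43, −0.28 and 0.36 after H2-water. *Cirbp* was high on replicates 2 and 3 at 3 days and on all 7-day arrays, and near 0 on replicate 1 at 3 days. Among the MgH2 groups *Hsph1* was lowest on the same arrays. *Hspa8* lay at −0.54 to −0.17 there, against 0.06 to 0.37 on the other MgH2 arrays. Other genes of the arm did not all follow. *Hspb1* was −0.08 on replicate 3 at 3 days but −0.14 on replicate 1. At 7 days *Dnajb1* was 0.04, −0.17 and 0.04 on replicates 1, 2 and 3. The brightest *Dnaja1* probe was −0.01, −0.13 and 0.15 there, while its second probe was below 0 on all 3. At 1 day *Hsph1* ran from −0.22 to 0.42 while *Cirbp* stayed near 0. After H2-water *Hsph1* and *Hspa8* were −0.49 and −0.18 on replicate 1 but 0.04 and 0.22 on replicate 3, with *Cirbp* at 0.43 and 0.36. *Cirbp* was higher at 3 days (0.54, adjusted P = 0.0489) and 7 days (0.96, adjusted P = 0.00313), and *Rbm3* at 3 days (0.18, adjusted P = 0.0469) and 7 days (0.36, adjusted P = 0.00172). The labels give no body temperature or hour of sampling, and the part of either in the heat shock values was not tested.

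**Figure D5:**
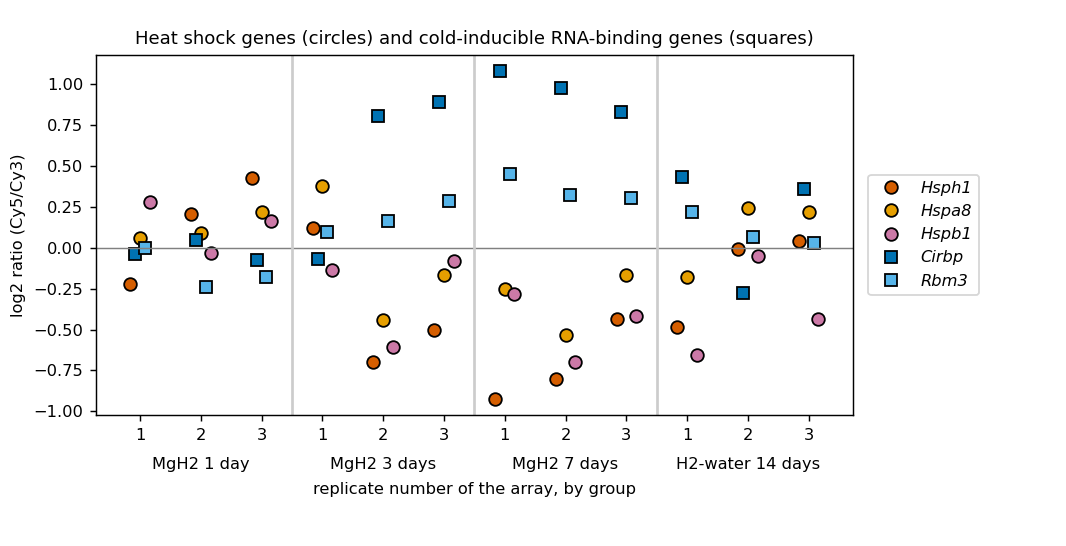
Log2 ratios of the heat shock arm genes *Hsph1*, *Hspa8* and *Hspb1* (circles) and of the cold-inducible *Cirbp* and *Rbm3* (squares) on each array. *Cirbp* lies at 0.81 to 1.08 on replicates 2 and 3 at 3 days and on the 7-day arrays, where *Hsph1* lies at −0.92 to −0.43.

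Other genes of the same pathways were read from wider lists, beside 12.3% of probes higher and 11.1% lower at 3 days and 15.3% and 14.3% at 7 days. Of 51 further genes of ER folding and secretion, 17 were lower (33.3%) and 3 higher (5.88%) at 3 days. At 7 days 20 were lower (39.2%) and 4 higher (7.84%). At 1 day 2 were higher (3.92%) and 1 lower (1.96%), against 5.15% and 4.24% of probes. After H2-water 5 were lower (9.8%) and none higher, against 3.91% and 4.92% of probes. The isomerases *Pdia5* (−0.52 at 3 days and −0.59 at 7 days) and *Erp44* (−0.26 and −0.24) were among the lower genes. Among 21 further genes of ER-associated degradation, 4 were higher (19.0%) and 3 lower (14.3%) at 3 days, and 6 were higher (28.6%) and 4 lower (19.0%) at 7 days. Among the further ATF4 and integrated stress response genes, 5 of 38 were lower (13.2%) and 2 higher (5.26%) at 3 days, and 7 of 40 were lower (17.5%) and 3 higher (7.5%) at 7 days. Among 49 further heat shock proteins and co-chaperones, 8 were lower (16.3%) and 7 higher (14.3%) at 3 days. At 7 days 9 of each direction (18.4%) were called, and the shares at both times were near those of all probes. At 1 day 7 of 49 were lower (14.3%) and 2 higher (4.08%), against 4.24% and 5.15% of probes. After H2-water 5 of 48 were lower (10.4%) and 2 higher (4.17%), against 3.91% and 4.92%. Taken alone, the 3-day comparison left 31 and the 7-day comparison 27 of the 51 folding and secretion genes without a call.

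Cell type markers were read beside these values. All 10 hepatocyte markers were above background on the 12 arrays, and 5 were higher and 1 lower at 7 days. The log2 ratio of their summed signals was 0.23 to 0.26 at 7 days and 0.14 to 0.19 at 3 days. Of 11 macrophage and leukocyte markers 10 were above background on all arrays and *Cd8a* on none. In that list *Ptprc* was lower at 1 day (−0.59, adjusted P = 0.0242), 3 were lower at 3 days and 5 at 7 days, and *Cd3e* was higher at 3 days (0.11, adjusted P = 0.0382) and lower after H2-water (−0.16, adjusted P = 0.0195). Log2 ratios of the summed signals were −0.30 to −0.17 at 3 days and −0.46 to −0.25 at 7 days, against −0.21 to 0.14 at 1 day and −0.12 to 0.14 after H2-water. Of 8 plasma and B cell markers, cells rich in ER chaperones, only *Cd79b* was above background on all arrays and 5 were on none. *Cd79b* was lower at 3 days (−0.52, adjusted P = 0.0336) and 7 days (−0.48, adjusted P = 0.0396), and the log2 ratios of the summed signals of that list were −0.83 to −0.29 and −0.62 to −0.29 there, −0.42 to 0.40 at 1 day and −0.23 to 0.28 after H2-water. Of 9 endothelial and stellate markers 8 were above background on all arrays. *Clec4g*, *Col1a1* and *Lrat* were lower and *Lyve1* higher at both 3 days (−0.24, −0.41, −0.47 and 0.58) and 7 days (−0.35, −0.39, −0.44 and 0.68), and *Stab2* was higher at 3 days (0.22). Of the 8 tested, 37.5% were lower at each of these times, and 25.0% and 12.5% were higher. After H2-water *Kdr* alone was called, and was lower. Log2 ratios of the summed signals of that list stayed between −0.14 and 0.12 on the 12 arrays. Of 12 pancreatic markers 4 were above background on all arrays and 4 (*Cela1*, *Cela3b*, *Prss2* and *Try4*) on none. *Ctrb1* was lower at 3 days, and no other pancreatic marker was called in any group. The part of the macrophage, B cell, endothelial and stellate markers in the ER values was not tested.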

How the data were processed

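Liver RNA of 12 treated and 12 control pools was hybridised on 12 two-colour Agilent arrays (44397 features each; the methods name another array format). The authors scanned the arrays and used Agilent Feature Extraction (10.10.1 in the submitters' processing notes, 10.7.3.1 in the headers of the 14-day arrays). The deposited intensity values are the processed Cy5 and Cy3 signals, background-corrected and dye-normalised by that program, the deposited log10 column is the ratio of Cy5 over Cy3, and the value table deposited by the authors holds the same ratios as log2, equal to within 1.4e-06. Here log2 ratios were taken from the processed signals with no further scaling. Control spots and outlier-flagged spots were left out (160 to 244 per array), and no spot was saturated. Spots of one probe were averaged. Tested probes had both signals above background on every array of the groups compared, and were analysed with limma 3.58.1 (R 4.3.3) in one fit with a mean per group, and P values were adjusted by Benjamini-Hochberg over all tested probes with a threshold of 0.05. Dose is as labelled.

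The genes and lists were chosen with earlier results of these data known. Values on each array are given for every gene called in a comparison, and other genes by their fitted values, ranges and counts. MgH2 arrays sharing a replicate number deviated together from their group means (r = 0.368 to 0.655 over 18397 probes in 9 pairs, −0.433 to 0.053 for other numbers), so the fit with the replicate number as a block is given where it changes a call. Nothing in the labels says that pools of one group came from separate cages or days, and the arrays' small number limits the precision. Alternatives were other scalings, normexp with loess, the value table, no filter on dim probes, fits of fewer arrays, the mean of a gene's probes, slide or replicate as a block, the methods' t-test and leaving out each array. The single-channel fits were added after seeing the data. On simulated data with 200 of 18397 probes changed, 37%, 88% and 98.5% of log2 changes of 0.3, 0.6 and 1 were recovered at 7 days against control. From 1 to 7 days 0.5%, 68% and 91.5% were recovered. The simulated arrays were independent of each other. In the data 5748 of 19455 probes were called at 7 days and arrays sharing a replicate number deviated together. These rates therefore do not give the power of the calls reported here. No other per-sample columns were used.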

Additional observations from a re-analysis of the deposited data

Results flagged for a closer look

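Differences between groups passed the test for 6 gene contrasts. From 1 to 7 days of MgH2 the log2 ratio changed by −0.3737 for *Pdia3*, by −0.5201 for *Pdia6*, by −0.3051 for *Calr*, by −0.484 for *Dnajc3* and by −0.4696 for *Xbp1*. These 5 differences were tested as contrasts of the group means in the limma fit, and their adjusted P values ran from 0.00936 to 0.0456. Between H2-water and the mean of the MgH2 groups the log2 ratio of *Atf4* differed by −0.212 (adjusted P = 0.0375), with all 3 H2-water arrays below all 9 MgH2 arrays, and the call was lost in 9 of the 12 fits that left out an array. Groups of 3 arrays were not tested for single arrays that lie far from the others.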

How the results depend on the processing

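With 3 arrays per group the calls near the threshold moved with the fit. Over 470 recomputed values of called genes, 310 kept their direction and their call, 154 kept the direction and lost the call, and 6 changed sign. Of these 6, 4 are the Cy3 channel alone, where a rise adds to a fall of the ratio and so reverses nothing. Without the filter on dim probes 1 gene was called at 1 day, 5 at 3 days and 0 after H2-water. From 1 to 7 days 1 was called, and 0 for H2-water against MgH2. In that order 714, 2430, 2317, 109 and 597 probes were called. Fitting only the arrays compared gave 0, 0 and 9 at 1, 3 and 7 days, 1 after H2-water and 2 from 1 to 7 days. In that order 101, 292, 2178, 501 and 184 probes were called, with fewer arrays to estimate the spread. At its unadjusted threshold the methods' t-test called 3 of 38, 8 of 37 and 15 of 38 genes at 1, 3 and 7 days. After H2-water it called 1 of 34. In that order 2852 of 19660, 2450 of 19414, 3662 of 19455 and 1388 of 20411 probes passed. After Benjamini-Hochberg adjustment it called 0, 0, 0 and 0 genes, and 102, 1, 0 and 0 probes. Centring on each array's median put the median change of all probes at −0.1025 at 7 days and −0.1022 from 3 to 7 days. For H2-water against MgH2 it was 0.1103, and the shift was over 0.1 in each. It gave 1 gene at 1 day, 0 after H2-water and 9 from 1 to 7 days, with 823, 1340 and 1079 probes called. Over the 23 genes tested at 7 days, the ER stress arm median, as a mean of 3 arrays, was −0.32 in place of −0.21 (SD 0.085, n = 3). This set is wider than the 21 genes above background on all arrays. Relative to that shift the arm kept its direction. Division by channel totals gave 5 genes after H2-water (1964 probes). Normexp with loess gave 6 after H2-water (2594 probes), 8 from 1 to 7 days (1326) and 2 for H2-water against MgH2 (825). The slide as a block gave 6 after H2-water (2800 probes) and 0 from 1 to 7 days (0 probes).

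The replicate number as a block gave 4 called genes from 1 to 3 days, 10 from 1 to 7 days and 0 for H2-water against MgH2, with 460, 3140 and 166 probes called in place of 4, 1336 and 598. It called *Pdia6* after H2-water and *Syvn1* at 3 days in addition and changed no other call. The Cy5 channel alone gave 6 from 1 to 3 days and 14 from 1 to 7 days, with 649 and 3473 probes called. The Cy3 channel alone gave 0, with 0 and 1 probes called. There *Pdia6*, *Calr*, *Dnajc3* and *Xbp1* had 0.0402, 0.0675, 0.0051 and 0.0396 from 1 to 7 days. The mean over all *Dnajb11* probes was 0.22 at 3 days and 0.37 at 7 days, above 0 through its second probe. Leaving out 1 array gave 1 to 3 called genes at 1 day (1 without replicate 2 or 3), 4 to 7 at 3 days (4 without replicate 2), 6 to 9 at 7 days (6 without replicate 2), 0 to 1 after H2-water (0 without replicate 2 or 3), 1 to 7 from 1 to 7 days (1 without replicate 1 or 3 at 7 days or replicate 2 at 1 day, 7 without replicate 1 at 1 day) and 0 to 1 for H2-water against MgH2 (0 in 9 of 12 fits: without any H2-water or 3-day array, replicate 2 at 1 day, or replicate 2 or 3 at 7 days). Signal over background left *Hspa1a* untested and *Atf3* and *Derl3* tested in part.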

Other observations

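Some genes of the wider lists, outside the 40, were called in several groups. *Gadd45a*, a growth arrest gene that ATF4 and p53 can induce, had a log2 change of −0.86 at 3 days (adjusted P = 0.00674) and −1.02 at 7 days (adjusted P = 0.00202) of MgH2, and *Gdf15*, the gene of a secreted stress cytokine, −0.91 at 7 days (adjusted P = 0.0118). *Psph*, an enzyme of serine synthesis, was higher in all 4 groups, by 0.25, 0.22 and 0.24 at 1, 3 and 7 days and by 0.25 after H2-water. With no dye swap, a dye bias of its probe cannot be told apart from such a steady rise. *Fkbp5*, an HSP90 co-chaperone that glucocorticoids induce, was higher at 3 days (0.77, adjusted P = 0.000675) and 7 days (0.80, adjusted P = 0.000367). *Serpinh1*, the collagen chaperone of the ER, was lower at 3 days (−0.43), 7 days (−0.48) and after H2-water (−0.24). *Stip1*, the organiser protein between HSP70 and HSP90, was lower in the same 3 groups (−0.30, −0.37 and −0.25).

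The clock gene *Arntl* differed widely between arrays of one group, lowest on replicate 1 each time. *Arntl* had log2 ratios on replicates 1, 2 and 3 of −1.69, 0.65 and 0.78 at 1 day, −0.72, 1.08 and 1.5 at 3 days, 0.01, 1.26 and 0.93 at 7 days, and −0.67, −0.33 and −0.63 after H2-water.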
